A study of Mus musculus with 6 samples.

Results

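The 9 genes described here mark the mural cells of blood vessels, which are the pericytes of capillaries and the smooth muscle cells of larger vessels. They were taken by name (Pdgfrb, Rgs5, Cspg4, Mcam, Des, Acta2, Tagln, Myh11 and Cnn1), and all 9 were found among the 23473 RefSeq genes of the expression table. RNA was sequenced from tumor endothelial cells (TECs) that had been captured with beads against CD31, an endothelial surface protein, from subcutaneous tumors of Lewis lung carcinoma (LLC), a transplantable mouse lung cancer line. There were 3 Ctrl and 3 NICeCA libraries, all from C57BL/6 mice given in the labels as 8 weeks of age. NICeCA mice carried Cdh5-Cre-ERT2, a tamoxifen-dependent Cre driven by the promoter of the endothelial cadherin gene, together with a Rosa26 allele from which Cre releases the Notch1 intracellular domain (ICD), the active form of the receptor. Ctrl mice were labelled wild type, and the labels do not say whether they carried Cre or received tamoxifen. Tumors were dissected on more than 1 day, by the labels, which do not tie a library to a day, whereas the study's methods give a single day after inoculation. Because Cre was driven by an endothelial promoter, mural cells were not the cells in which the transgene was to be switched on.

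Pericytes lie against the endothelial tube inside the same basement membrane, and smooth muscle cells wrap arterioles and veins in contractile layers. Endothelial cells attract them with platelet-derived growth factor B (PDGF-B), which acts on the receptor encoded by Pdgfrb, and the Notch ligand Jagged1 on endothelium acts on Notch3 in mural cells during their maturation. The contractile genes of smooth muscle are switched on by serum response factor (SRF) and its myocardin-family partners, which bind CArG boxes, short AT-rich motifs in the promoters of these genes.

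Expression was given as RPKM, reads scaled to the length of the gene and to the size of the library, so levels can be set side by side. This scaling makes no allowance for a different mix of RNAs between libraries, and results under other scalings are given in the last section. Differences are given as log2 fold changes of NICeCA over Ctrl on the log2(RPKM + 1) scale, which understates the change of genes near or below 1 RPKM. They were tested with limma over 12320 RefSeq genes, those whose mean over the 6 libraries reached 1 RPKM, and a gene was called at a Benjamini-Hochberg adjusted p under 0.05. On these terms 1671 genes were called, which was 13.6% of those tested, and 5.88% were called higher and 7.68% lower in NICeCA. Far fewer genes were called without NICeCA 2 (18), NICeCA 1 (104) or Ctrl 2 (379), and 1035 without Ctrl 1.

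In NICeCA libraries Tagln and Rgs5 rose, by 3.03-fold and 2.58-fold in mean RPKM. Acta2 and Myh11 were 2.56-fold and 2.28-fold higher in mean RPKM but missed the threshold, as did Mcam and Des. Pdgfrb, which encodes the PDGF-B receptor of mural cells, had nearly the same mean level in both groups. Of the 9 members 7 passed the expression filter, and limma called 2 of these 7 higher and 0 lower, against 5.88% and 7.68% of all tested genes. At an unadjusted p under 0.05 there were 4 of 7, against 35.5% of all tested genes. The groups did not overlap for 3 of the 7, all higher in NICeCA, where 16.5% of all tested genes were apart and higher, 24.4% apart and lower and 40.9% apart in either direction. The median log2 fold change of the 7 was 0.77, with 6 positive and 1 negative, against a median of -0.05 over all tested genes, of which 44.7% were positive. Without NICeCA 1 or NICeCA 2 the number of members called was 0, and without NICeCA 3 or Ctrl 2 it was 1. The 2 members that the filter left out, Cspg4 and Cnn1, had low levels in both groups. In RNA from a mixed cell fraction, a change in the number of mural cells and a change in the RNA made per mural cell cannot be told apart. The labels number the libraries as replicates, and the study's methods speak of pairs of NICeCA and control mice without saying what a pair shared. The p-values rest on the spread between these 6 libraries, which may hold technical differences as well as differences between mice.

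**Figure D1:**
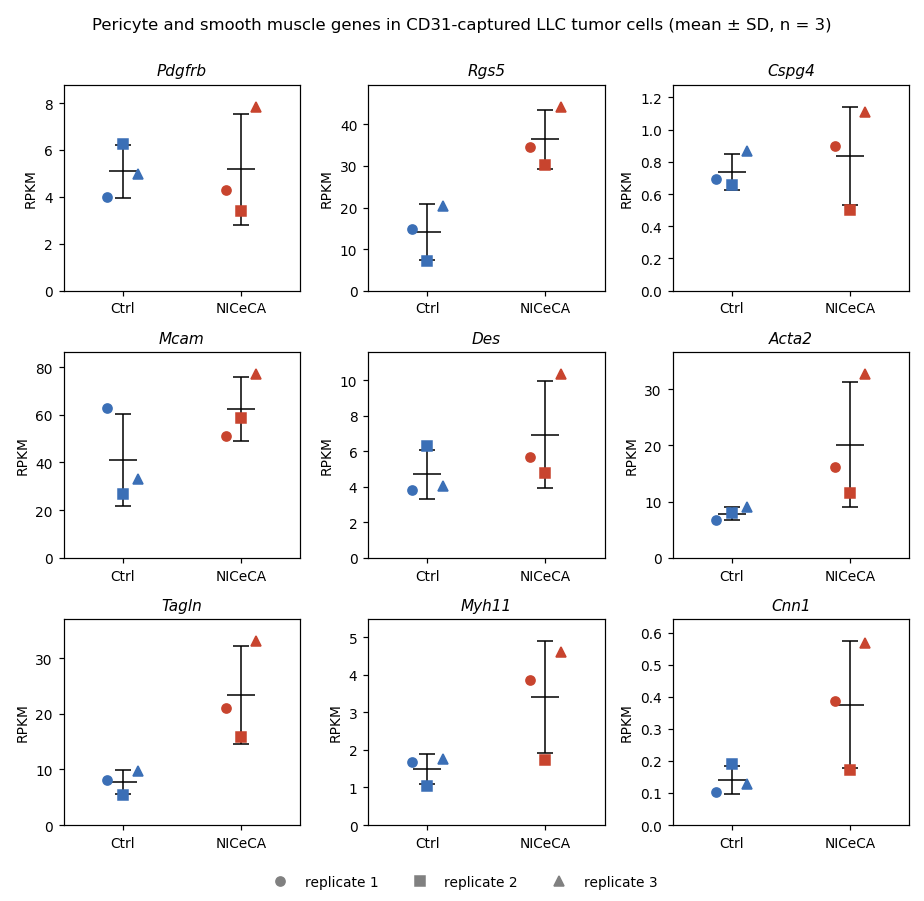
RPKM of the 9 mural genes in each library, with a symbol per replicate, a horizontal line for the group mean and bars for the SD (3 libraries per group, 1 linear axis per gene). Rgs5, Acta2 and Tagln have all NICeCA points above all Ctrl points, and NICeCA 3 is the highest point in each of the 9 panels.

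Acta2 encodes smooth muscle α-actin, the main actin of the contractile apparatus, and its promoter is a classical target of SRF. The gene lies on the minus strand at chr19:34240336-34255373. Its level was 6.66, 7.99 and 8.97 RPKM in Ctrl 1, 2 and 3 and 16.2, 11.5 and 32.7 RPKM in NICeCA 1, 2 and 3. All NICeCA libraries were above all Ctrl libraries, with NICeCA 3 far above the other two. The group means were 7.87 ± 1.16 and 20.1 ± 11.1 RPKM (SD, n = 3 each). The log2 fold change was 1.13 (95% CI 0.38 to 1.89, SE 0.33), and its limma adjusted p of 0.056 was just above the threshold. Without NICeCA 3 the log2 fold change was 0.73 (adjusted p = 0.0542). Acta2 shares most of its coding sequence with the other actin genes, so reads from these may be assigned to one another.

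The promoter of Acta2 is shown because it was the only 1 of the 6 member promoters used (RefSeq, build GRCm38.p6) that held a CArG box. A CArG box was defined here as CC, then 6 bases with at most 1 G or C, then GG, on either strand. The sequence on the minus strand at chr19:34255324-34255623 runs 5′ to 3′ from 250 bases before the start of the gene to 50 bases after it, and capitals mark the CArG boxes, which span bases -84 to -75 and -34 to -25. The promoters of Cnn1, calponin 1, at chr9:22099003-22099302 and of Rgs5 at chr1:169655251-169655550, both on the plus strand, had no match and are shown beside it as a low contractile gene and as the pericyte gene that rose.
Acta2: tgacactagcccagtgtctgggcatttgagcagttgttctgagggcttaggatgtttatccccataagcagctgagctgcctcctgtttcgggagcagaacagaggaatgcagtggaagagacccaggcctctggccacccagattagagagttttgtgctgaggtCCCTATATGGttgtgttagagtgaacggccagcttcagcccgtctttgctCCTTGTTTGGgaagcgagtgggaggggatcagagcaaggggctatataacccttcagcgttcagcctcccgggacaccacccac
Cnn1: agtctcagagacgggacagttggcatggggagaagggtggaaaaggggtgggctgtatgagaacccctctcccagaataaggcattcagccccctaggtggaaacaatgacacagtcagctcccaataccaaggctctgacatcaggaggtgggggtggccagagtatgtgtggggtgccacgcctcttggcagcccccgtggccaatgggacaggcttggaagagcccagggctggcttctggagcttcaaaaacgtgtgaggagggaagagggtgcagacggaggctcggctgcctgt
Rgs5: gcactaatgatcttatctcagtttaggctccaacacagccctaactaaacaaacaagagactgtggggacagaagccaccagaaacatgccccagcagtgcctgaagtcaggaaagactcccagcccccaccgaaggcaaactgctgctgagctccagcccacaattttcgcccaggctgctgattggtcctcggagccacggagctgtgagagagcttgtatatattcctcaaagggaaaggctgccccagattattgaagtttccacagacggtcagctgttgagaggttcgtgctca

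A CArG box of this form occurred in 3280 of the 32851 mouse promoters of that length, or 9.98%, so a match in 1 of 6 members is a description of these windows. The strict form with no G or C between CC and GG occurred in 1.63% of promoters and in none of the 6. The letters TGGGAA, the core of the sites bound by RBPJ, the DNA-binding partner of the Notch ICD, occurred on either strand in 25.6% of promoters. Among the 6 they were found only in Acta2, at bases -27 to -22, where they overlap the second CArG box. The other three of the 6, Des, Mcam and Cspg4, had neither motif in this window.

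Tagln encodes transgelin, also called SM22α, an actin-binding protein of smooth muscle. It lies on the minus strand at chr9:45929628-45936058. Tagln was at 8.07, 5.40 and 9.64 RPKM in Ctrl 1, 2 and 3 and at 21.0, 15.9 and 33.1 RPKM in NICeCA 1, 2 and 3. The groups were apart, with the lowest NICeCA library well above the highest Ctrl library. Means were 7.70 ± 2.14 against 23.3 ± 8.81 RPKM (SD, n = 3 each), a log2 fold change of 1.45 (95% CI 0.81 to 2.10, SE 0.28, limma adjusted p = 0.026). The call was lost without NICeCA 1 (adjusted p = 0.102), NICeCA 2 (0.0572) or Ctrl 2 (0.0561), while the log2 fold change with 1 library left out stayed between 1.18 and 1.69. A transcript model on the other strand of this gene had nearly the same profile, and since the counting is not stated to use strand, reads of both cannot be told apart.

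Myh11, the smooth muscle myosin heavy chain and the most specific marker of mature smooth muscle among the 9, lies at chr16:14194527-14291408 on the minus strand. Its level was low, at 1.67, 1.04 and 1.77 RPKM in Ctrl 1, 2 and 3 and 3.87, 1.74 and 4.61 RPKM in NICeCA 1, 2 and 3. NICeCA 1 and 3 were above every Ctrl library, and NICeCA 2 lay just under Ctrl 3, so the groups overlapped. The means of 1.49 ± 0.40 and 3.41 ± 1.49 RPKM (SD, n = 3 each) gave a log2 fold change of 0.77 (95% CI 0.14 to 1.40, SE 0.27, limma adjusted p = 0.089).

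Cnn1, which encodes the thin-filament protein calponin 1, lies on the plus strand at chr9:22099253-22109221 and was the lowest of the 9. It was at 0.103, 0.190 and 0.129 RPKM in Ctrl 1, 2 and 3 and at 0.386, 0.171 and 0.568 RPKM in NICeCA 1, 2 and 3, which the gene length converts to 8, 15 and 10 reads against 28, 12 and 42 reads. NICeCA 1 and 3 exceeded all Ctrl libraries and NICeCA 2 fell among them. The difference did not exceed the spread between libraries (two-sided exact permutation p = 0.2, where 0.1 is the smallest p that 3 against 3 libraries allow).

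Rgs5 encodes a regulator of G protein signaling that is abundant in pericytes and in tumor mural cells. It lies on the plus strand at chr1:169655501-169693526. Its level was 14.8, 7.13 and 20.4 RPKM in Ctrl 1, 2 and 3 and 34.6, 30.3 and 44.3 RPKM in NICeCA 1, 2 and 3. Every NICeCA library was higher than every Ctrl library, and Ctrl 2 was the lowest. The means were 14.1 ± 6.68 and 36.4 ± 7.17 RPKM (SD, n = 3 each), with a log2 fold change of 1.40 (95% CI 0.63 to 2.16, SE 0.33, limma adjusted p = 0.038). This call was lost without NICeCA 1 (adjusted p = 0.128), NICeCA 2 (0.119), NICeCA 3 (0.0665) or Ctrl 1 (0.0571), with log2 fold changes between 1.01 and 1.71 when any 1 library was left out.

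Pdgfrb lies on the plus strand at chr18:61045150-61085067 and encodes the receptor through which pericytes are recruited. It was at 3.99, 6.27 and 4.99 RPKM in Ctrl 1, 2 and 3 and at 4.30, 3.38 and 7.85 RPKM in NICeCA 1, 2 and 3. The lowest and the highest of the 6 libraries were both NICeCA, so the groups overlapped fully. The mean was 5.08 ± 1.14 RPKM in Ctrl and 5.17 ± 2.36 RPKM in NICeCA (SD, n = 3 each), and the log2 fold change of -0.03 had a 95% CI of -0.64 to 0.58 (SE 0.26, limma adjusted p = 0.950). A change within that interval, in either direction, could not be told from none, and the sign of the estimate turned under other scalings (0.10 after quantile normalization, 0.02 after trimmed mean scaling).

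Cspg4 encodes NG2, a surface proteoglycan of pericytes, and lies on the plus strand at chr9:56865104-56899870. Its level was 0.693, 0.655 and 0.866 RPKM in Ctrl 1, 2 and 3 and 0.899, 0.503 and 1.11 RPKM in NICeCA 1, 2 and 3, from between 143 and 332 reads per library. NICeCA 2 was the lowest and NICeCA 3 the highest of the 6, so no difference beyond the spread was seen (two-sided exact permutation p = 0.6, 3 libraries per group). Fitted without the expression filter, its log2 fold change was 0.07 (limma adjusted p = 0.778) and that of Cnn1 was 0.26 (adjusted p = 0.174).

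Des encodes desmin, the intermediate filament protein of muscle and of many pericytes. It lies on the plus strand at chr1:75360344-75367715. The values were 3.81, 6.29 and 4.02 RPKM in Ctrl 1, 2 and 3 and 5.67, 4.77 and 10.4 RPKM in NICeCA 1, 2 and 3. Only NICeCA 3 was above all Ctrl libraries. From means of 4.71 ± 1.37 and 6.93 ± 3.0 RPKM (SD, n = 3 each), the log2 fold change was 0.44 (95% CI -0.19 to 1.06, SE 0.27, limma adjusted p = 0.279), and without NICeCA 3 it was 0.15 (adjusted p = 0.655). Desmin is also made by skeletal muscle, whose 14 markers summed to between 10.9 and 34.3 RPKM in Ctrl libraries, with Ctrl 2 the highest, and to between 12.3 and 15.1 RPKM in NICeCA libraries. Ctrl 2 was also the highest Ctrl library for Des, and the part of skeletal muscle RNA in its level was not tested.

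Mcam encodes CD146, an adhesion molecule carried by pericytes and also by endothelial cells. It lies on the plus strand at chr9:44134658-44142726 and was the most abundant of the 9. Mcam was at 62.9, 26.7 and 33.2 RPKM in Ctrl 1, 2 and 3 and at 51.0, 58.8 and 77.1 RPKM in NICeCA 1, 2 and 3. Ctrl 1 was above 2 of the 3 NICeCA libraries, so the groups overlapped. The means were 41.0 ± 19.3 and 62.3 ± 13.4 RPKM (SD, n = 3 each), the log2 fold change was 0.67 (95% CI -0.04 to 1.37, SE 0.31, limma adjusted p = 0.159), and without Ctrl 1 it was 1.02 and was called (adjusted p = 0.0413), while without Ctrl 2 it was 0.41 (adjusted p = 0.379). Its level followed that of the endothelial cadherin gene Cdh5 closely, with a Mcam to Cdh5 ratio of RPKM between 0.748 and 0.863 in all 6 libraries.

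By mean level over the 6 libraries the order was Mcam (51.6 RPKM), Rgs5 (25.3), Tagln (15.5), Acta2 (13.998), Des (5.82), Pdgfrb (5.13), Myh11 (2.45), Cspg4 (0.787) and Cnn1 (0.258). Neighbours whose ranges overlapped in both groups were Rgs5 and Tagln, Tagln and Acta2, and Des and Pdgfrb. Pdgfrb and Myh11, and Cspg4 and Cnn1, overlapped in NICeCA libraries only, while the other neighbours did not overlap in either group.

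The libraries did not share the members' level evenly. NICeCA 3 was the highest of the 6 libraries for 9 of 9 members, and NICeCA 2 was the lowest NICeCA library for 8 of 9. Ctrl 2 was the lowest of the 6 for 4 members, Ctrl 1 for 3 and NICeCA 2 for 2. In the log2(RPKM + 1) profiles over the 6 libraries, Pearson's r was 0.96 for Rgs5 with Tagln, 0.93 for Acta2 with Tagln and 0.93 for Tagln with Myh11. It was 0.80 for Pdgfrb with Des, but -0.02 for Pdgfrb with Rgs5 and 0.20 for Pdgfrb with Tagln. These values describe 6 libraries that share their group, mouse and cell mixture across all genes.

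**Figure D2:**
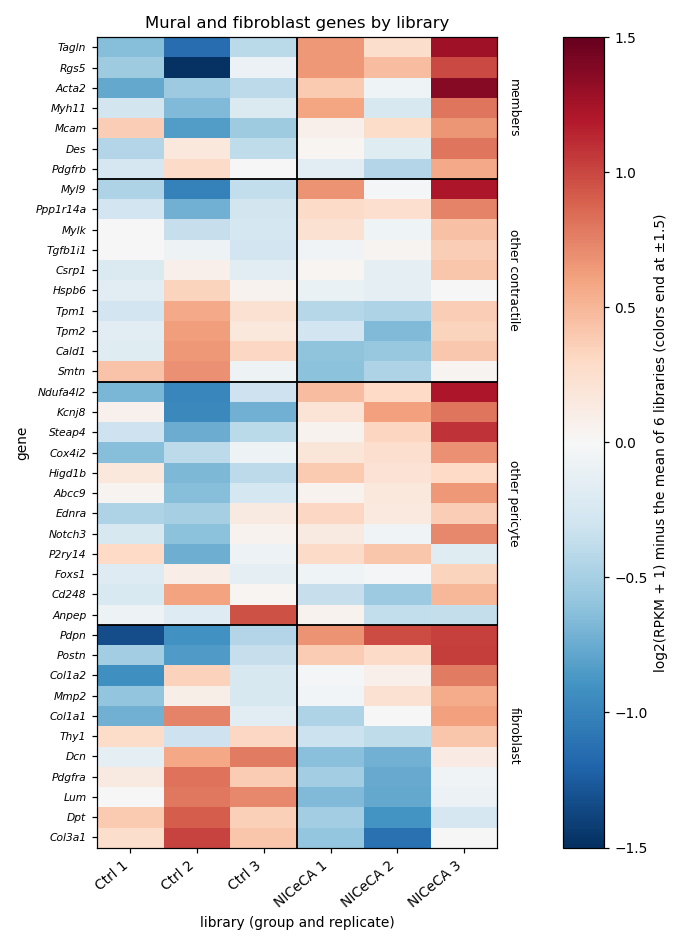
Level of the tested members and of the tested genes of the other contractile, other pericyte and fibroblast lists in each library, as log2(RPKM + 1) minus the mean of the gene over the 6 libraries (color scale, ends at ±1.5). NICeCA 3 has the highest value of every member, and Pdgfrb and Des are above their mean in Ctrl 2, where Rgs5, Tagln and Myh11 are lowest.

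The CD31 fraction also held other cell types, and several moved with the groups. The 14 endothelial markers summed to between 242 and 648 RPKM in Ctrl and between 553 and 723 RPKM in NICeCA libraries, with Ctrl 2 the lowest, all 14 had positive log2 fold changes (median 0.66), and 2 of 14 (Flt1 and Vwf) were called higher. The 13 fibroblast markers, which matter because activated fibroblasts can express Acta2 and Tagln, summed to between 442 and 715 RPKM in Ctrl and between 343 and 538 RPKM in NICeCA. Much of this sum was Col3a1, at 270, 454 and 300 RPKM in Ctrl 1, 2 and 3 and 149, 103 and 226 RPKM in NICeCA 1, 2 and 3. The sum is therefore not a level shared by all 13 markers. Of the 11 tested, 5 had positive and 6 negative log2 fold changes. Among these 11 limma called 4 lower (Col3a1, Lum, Pdgfra and Dpt) and 2 higher (Postn and Pdpn). The fibroblast sum was highest in Ctrl 2, the library with the lowest Rgs5, Tagln and Myh11, and among NICeCA libraries it was highest in NICeCA 3, the library with the highest level of every member. Neutrophil markers summed to 114 to 262 RPKM in Ctrl and 552 to 1624 RPKM in NICeCA, with 5 of 6 called higher, and macrophage markers to 5068 to 7274 and 3683 to 6514 RPKM, with Cd68 and Itgam called higher among 8. Most of the macrophage sum was Lyz2, at 3635 to 5555 RPKM in Ctrl and 2611 to 4562 RPKM in NICeCA. Epithelial markers stayed between 6.13 and 12.3 RPKM in all libraries, with Krt18 lower and Krt19 at 0 in Ctrl 3, and Schwann cell markers between 0.667 and 1.05 RPKM, with Foxd3 at 0 in Ctrl 3 and NICeCA 3. Among skeletal muscle markers limma called 0 of 7 tested, with 0 at an unadjusted p under 0.05, and Myog was at 0 in Ctrl 1 and 3 and in NICeCA 1 and 3. For comparison with these counts, 5.88% of all tested genes were called higher and 7.68% lower, and 35.5% had an unadjusted p under 0.05. The share of these cell types in the mural result was not tested. The Notch target Hey1 was higher in NICeCA libraries (log2 fold change 1.10, limma adjusted p = 0.041) and Notch1 had a log2 fold change of 0.11 (adjusted p = 0.713). Neither gene was on the lists used here.

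Set against the RNA of the endothelial gene Pecam1 or Cdh5, the groups overlapped for all 9 members. As ratios to Pecam1, the folds of Tagln, Rgs5, Acta2 and Myh11 were smaller than in RPKM. The mean NICeCA ratios of Pdgfrb, Cspg4, Des and Mcam to Pecam1 were below those of Ctrl, none beyond the spread between libraries. The mean Mcam to Cdh5 ratio was 0.798 in Ctrl and 0.803 in NICeCA. Pecam1, which encodes CD31, was at 135, 47.5 and 82.6 RPKM in Ctrl 1, 2 and 3 and at 125, 154 and 142 RPKM in NICeCA 1, 2 and 3. The Tagln to Pecam1 ratio was 0.0967 ± 0.0319 in Ctrl and 0.168 ± 0.0650 in NICeCA, 1.74-fold higher (two-sided exact permutation p = 0.3, n = 3 each). The Rgs5 ratio was 0.169 ± 0.0708 against 0.262 ± 0.0591, 1.55-fold higher (exact permutation p = 0.2, n = 3 each). The ratio was 1.33-fold higher for Acta2 and 1.35-fold higher for Myh11, both with an exact permutation p of 0.6. It was 0.504 times the Ctrl value for Pdgfrb and 0.622 times for Cspg4, both with an exact permutation p of 0.4. With all libraries centred on the mean log2 level of the 14 endothelial markers, 0 members were called, and the log2 fold changes were 0.69 for Tagln (limma adjusted p = 0.28), 0.64 for Rgs5 (0.31), 0.37 for Acta2 (0.533), 0.011 for Myh11 (0.985) and -0.79 for Pdgfrb. That centring takes the same amount from every gene of a library, and it moved the median of all tested genes from -0.05 to -0.81. By construction it cannot change the distance of a gene from the median gene. Tagln, Rgs5, Acta2 and Myh11 lay above the median gene and Pdgfrb close to it before centring as well, so this order is no further result.

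**Figure D3:**
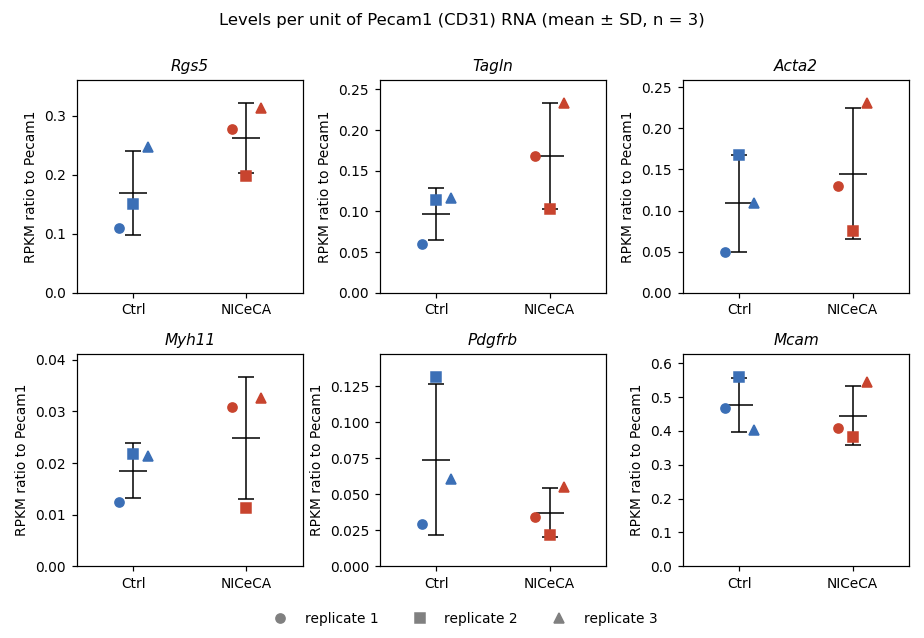
Ratio of the RPKM of Rgs5, Tagln, Acta2, Myh11, Pdgfrb and Mcam to that of Pecam1 in each library (symbols), with a horizontal line for the group mean and bars for the SD (3 libraries per group, 1 linear axis per gene). The Ctrl and NICeCA points overlap in all 6 panels, and Ctrl 2, the library with the lowest Pecam1, has the highest ratio for Pdgfrb.

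Among other genes of the smooth muscle contractile programme, Myl9 and Ppp1r14a rose and the rest did not pass the test. Of 18 on the list 10 were tested, and limma called 2 higher and 0 lower, against 5.88% and 7.68% of all tested genes. At an unadjusted p under 0.05 there were 4 of 10, near the 35.5% of all tested genes, and 5 of the 10 log2 fold changes were positive, with a median of 0.02. Myl9, the regulatory light chain of smooth muscle myosin, was at 7.57, 4.85 and 8.14 RPKM in Ctrl 1, 2 and 3 and at 17.9, 10.6 and 26.5 RPKM in NICeCA 1, 2 and 3. It rose with the groups apart (log2 fold change 1.24, limma adjusted p = 0.043). Ppp1r14a, the inhibitor of myosin phosphatase called CPI-17, rose as well, from a mean of 3.28 to 6.73 RPKM (log2 fold change 0.85, adjusted p = 0.034). The most abundant of the list, Csrp1, Tpm1 and Cald1, which many cell types use, had log2 fold changes of 0.20, -0.34 and -0.51 (adjusted p = 0.431, 0.414 and 0.270). Among the 8 that were under the filter, Itga8, Lmod1 and Pdlim3 were higher in each NICeCA library than in any Ctrl library. Each was at 1.44 RPKM or less, and these 3 were named after their values were seen. The share of all genes under the filter that were apart in this way was not counted, so these 3 have no background. Smtn had the lowest log2 fold change of the 10 tested, at -0.69 (limma adjusted p = 0.081), and was also named after its value was seen. The number called on this list was 1 without Ctrl 1 and 0 without any one of Ctrl 2, NICeCA 1, NICeCA 2 or NICeCA 3. Without Ctrl 3 it was 2, with 1 higher and 1 lower. With centring on endothelial markers it was 0.

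Of 19 other pericyte genes 12 were tested, and limma called 4 higher and 0 lower, against 5.88% and 7.68% of all tested genes. At an unadjusted p under 0.05 there were 7 of 12, against 35.5% of all tested genes, and 10 of the 12 were positive (median 0.57). Ndufa4l2, a mitochondrial protein enriched in pericytes, rose from 2.72 ± 0.865 to 8.49 ± 3.41 RPKM (log2 fold change 1.32, limma adjusted p = 0.029). Kcnj8, the pore of the potassium channel of pericytes, rose from 2.68 ± 1.45 to 6.55 ± 1.51 RPKM (log2 fold change 1.08, adjusted p = 0.043). Steap4 and Cox4i2, a metalloreductase and a subunit of cytochrome oxidase, rose as well, by 0.98 (adjusted p = 0.047) and 0.74 (0.049) on the log2 scale. The most abundant of the list, Anpep, P2ry14 and Cd248, had log2 fold changes of -0.45, 0.34 and -0.26 (adjusted p = 0.304, 0.394 and 0.563). Notch3, the mural receptor for Jagged1, was at 2.47 ± 0.786 and 4.07 ± 1.49 RPKM (log2 fold change 0.54, adjusted p = 0.154) and was named after its value was seen. Anpep and Cd248 are also made by fibroblasts, and Anpep by myeloid cells. Which cells of the fraction made the RNA of the 4 genes called was not tested. For 7 of the 12 tested the groups did not overlap, all higher in NICeCA, against 16.5% of all tested genes. Atp13a5, a brain pericyte gene under the filter that was named after its values were seen, was at 0 in all Ctrl libraries and in NICeCA 3. The number called was 2 without Ctrl 1, 1 without NICeCA 3 and 0 without any one of Ctrl 2, NICeCA 1 or NICeCA 2, and 0 with centring on endothelial markers.

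Among 15 ligands and receptors that pass signals between endothelium and mural cells, 14 were tested, with 2 called higher and 1 lower (median 0.30). These 3 of 14 stand against 13.6% of all tested genes called in either direction. Jag1, the Notch ligand on endothelium, was at 7.54, 4.93 and 8.02 RPKM in Ctrl 1, 2 and 3 and at 17.4, 17.4 and 18.6 RPKM in NICeCA 1, 2 and 3. The NICeCA libraries lay close together and far above Ctrl (log2 fold change 1.29, limma adjusted p = 0.011). Hbegf, an epidermal growth factor family ligand, rose by 0.90 on the log2 scale (adjusted p = 0.048), and Egfr, its receptor, fell by 0.80 (adjusted p = 0.049). Tgfbr2, Tgfb1 and S1pr1, the most abundant of this list, had log2 fold changes of -0.06, 0.21 and 0.59 (adjusted p = 0.810, 0.504 and 0.217). Pdgfb, a ligand of the receptor encoded by Pdgfrb, was at a mean of 22.7 ± 6.63 RPKM in Ctrl and 21.3 ± 2.73 RPKM in NICeCA (adjusted p = 0.853). Pdgfd, which the study names as involved in mural cell recruitment, was at 3.66 ± 1.79 RPKM in Ctrl and 6.83 ± 1.54 RPKM in NICeCA. Its groups overlapped (log2 fold change 0.80, limma adjusted p = 0.080). Pdgfb and Pdgfd were named after their values were seen. The number called was 1 without Ctrl 2, 0 without NICeCA 1 or NICeCA 2, and 0 with centring on endothelial markers.

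Of 11 transcriptional regulators of smooth muscle genes 9 were tested, and limma called 0 higher and 2 lower, against 5.88% and 7.68% of all tested genes. At an unadjusted p under 0.05 there were 5 of 9, against 35.5% of all tested genes, and 1 of the 9 log2 fold changes was positive (median -0.30). Mkl1, which encodes the SRF partner MRTF-A, was at 9.80, 9.47 and 11.9 RPKM in Ctrl 1, 2 and 3 and 7.40, 6.05 and 6.27 RPKM in NICeCA 1, 2 and 3, and fell (log2 fold change -0.59, limma adjusted p = 0.036). Tead1, a factor of the Hippo pathway, fell too (log2 fold change -1.23, adjusted p = 0.041). Klf4, Srf and Smad3, the most abundant of this list, had log2 fold changes of -0.29, -0.24 and -0.60 (adjusted p = 0.447, 0.291 and 0.070). Myocd, which encodes myocardin itself, was at or under 0.136 RPKM in all 6 libraries and was not tested, and it was named after its values were seen. The number called was 1 without Ctrl 1, 3 without NICeCA 3 and 0 without any one of Ctrl 2, Ctrl 3, NICeCA 1 or NICeCA 2. Over all genes, 14 were called lower without NICeCA 1 and 1 without NICeCA 2. These regulators are made by many of the cell types in the fraction, so their levels are not those of mural cells alone.

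**Figure D4:**
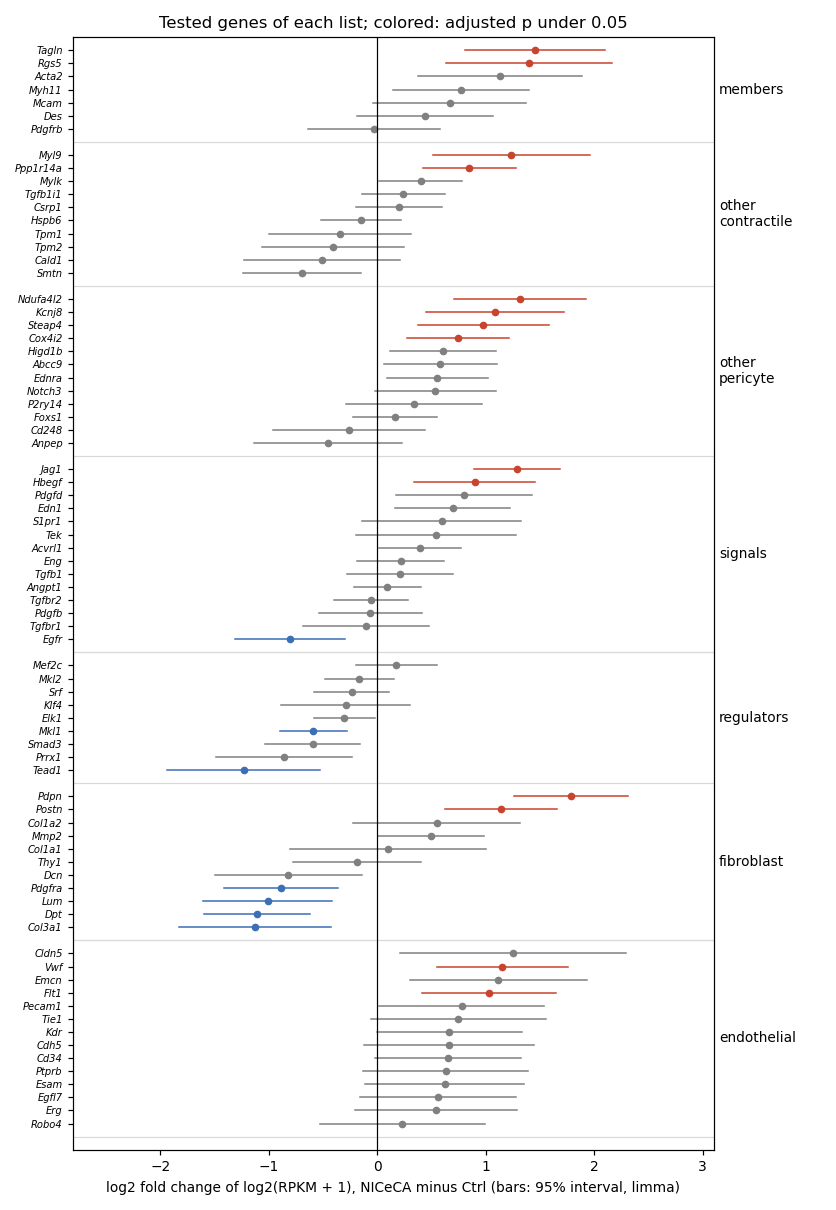
Log2 fold change of NICeCA over Ctrl (horizontal axis, log2(RPKM + 1) scale) of each tested gene of the mural, contractile, pericyte, signal, regulator, fibroblast and endothelial lists, with points for the limma estimate, bars for its 95% CI and color for an adjusted p under 0.05. Among the members the intervals of Tagln, Rgs5, Acta2 and Myh11 lie above 0 and that of Pdgfrb is centred near -0.03.

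The 10 genes outside the 9 whose log2(RPKM + 1) profile over the 6 libraries was most like the mean of the standardised members had Pearson's r between 0.95 and 0.98. They were 6430562O15Rik, Ntn4, Sema3c, Bud13, Ccdc174, Myl9, Fads3, 1700110K17Rik, Col5a2 and Krtcap2. Their difference between the groups and their order of libraries follow from this choice and are no further result. Ntn4, a netrin of vascular basement membranes, was at 0.935, 0.812 and 1.16 RPKM in Ctrl 1, 2 and 3 and 2.26, 1.92 and 3.75 RPKM in NICeCA 1, 2 and 3, as an example of the profile.

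**Figure D5:**
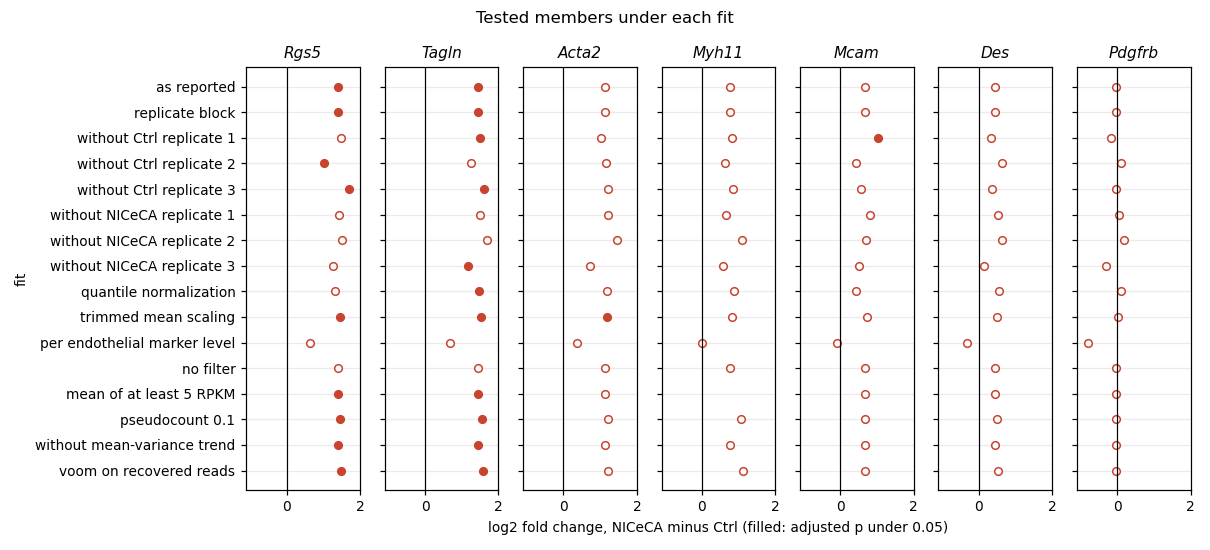
Log2 fold change of NICeCA over Ctrl of the members under each alternative processing, with 1 row per setting and filled points where the adjusted p was under 0.05. Rgs5 was called in 8 and Tagln in 10 of 15 alternatives, and neither was called without NICeCA 1 or NICeCA 2, without the expression filter or with centring on endothelial markers.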

How the data were processed

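Total RNA of CD31-captured TECs was depleted of ribosomal RNA and sequenced with paired reads. The authors deposited 1 table of RPKM per gene for the 6 libraries. TopHat2 and the build mm9 are named, without versions, in the processing notes of the submitters. Neither these nor the study's methods name the counting tool or its strand setting. The coordinates in the table overlapped those of the same gene in GRCm38 for 99.3% of 21665 symbols matched, so positions are given in GRCm38. Of 56826 rows, 33353 FANTOM3 models were left out and 23473 RefSeq rows were used. Multiplying RPKM by gene length gave values that were whole multiples of 1 read (within 0.05, for 100% of values under 1000 reads). Libraries held 35303225 to 39823539 reads over all rows, with less depth in NICeCA (35303225 to 37239346) than in Ctrl (39000792 to 39823539).

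Log2(RPKM + 1) of the 12320 RefSeq rows with a mean of at least 1 RPKM was fitted with limma 3.58.1 in R 4.3.3 (mean-variance trend, two-sided, Benjamini-Hochberg over all rows tested, no covariates). Tested on simulated data with 12344 genes, the fit called 61.2% of 98 genes changed 2-fold and 93.8% of 97 changed 4-fold. Members under the filter were compared with an exact permutation test over the 20 assignments of libraries. Correlations of same-numbered deviations were 0.12, -0.34 and -0.18. With 3 libraries per group these cannot show whether the replicate numbers pair the libraries, and the main fit used no pairing. Alternatives were a replicate block, leaving out each library, other scalings, filters, pseudocount and variance model, and limma voom on the recovered reads. Named with values were all members and, of each list, the genes called and the 3 most abundant. Hey1 and Notch1, which were on none of the lists, were also named outside this rule. Notch3, Pdgfb, Pdgfd, Myocd, Atp13a5, Itga8, Lmod1, Pdlim3 and Smtn were named outside it after their values were seen. Recounting the regulators under the alternatives was likewise added after seeing the data. The members and lists were chosen with earlier results of these data known. Promoter sequences came from RefSeq (GRCm38.p6), and those of 6 of 9 members were used. Tagln and Myh11 had no entry there. The chromosome of Pdgfrb was left out of the promoter step, so Pdgfrb is not among the 6.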

Additional observations from a re-analysis of the deposited data

Results flagged for a closer look

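A transcript model named 2210406K15, which was outside the RefSeq rows tested, lies inside Tagln on the other strand at chr9:45930112-45932436. It had a mean of 19.3 RPKM in NICeCA libraries and 6.77 RPKM in Ctrl libraries. The NICeCA libraries ranged from 13.4 to 27.2 RPKM and the Ctrl libraries from 4.81 to 8.33 RPKM, so the groups did not overlap. Its ratio to Tagln lay between 0.824 and 0.891 in all 6 libraries, and whether its reads are those of Tagln was not tested. It is given because it is signal outside the comparisons made, above the level in Ctrl libraries.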

How the results depend on the processing

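With 1 library left out, members called ranged from 0 to 2, contractile genes from 0 to 2, pericyte genes from 0 to 3, recruitment genes from 0 to 3 and all genes from 18 (without NICeCA 2) to 1655. Reported counts were 2, 2, 4, 3 and 1671. Quantile normalization called 1 member, 1 contractile gene, 1 recruitment gene and 771 genes in all, of which 57.8% were higher against 43.4% as reported, and trimmed mean scaling called 1687, of which 59.5% were higher. Centring on endothelial markers called 0 members, 0 contractile, 0 pericyte and 0 recruitment genes and 436 genes in all (6.65% higher). Without a filter 0 members, 0 pericyte genes, 1 recruitment gene and 365 genes were called. A minimum of 5 RPKM called 1 pericyte gene, and a pseudocount of 0.1 called 1 recruitment gene. The replicate block called 536 genes, 1 pericyte gene and 1 recruitment gene. It still called 2 members, Tagln (limma adjusted p = 0.00835) and Rgs5 (0.0214). Whether the replicate numbers pair the libraries is not known, so the lower counts say nothing of a weaker effect. The log2 fold change of Pdgfrb turned to 0.10 with quantile normalization and 0.024 with trimmed mean scaling, and ranged from -0.32 to 0.19 with 1 library left out. With centring on endothelial markers Mcam turned to -0.093 and Des to -0.32. The cause of these changes was not tested, except that leaving out a library leaves fewer samples. Acta2 passed the threshold only with trimmed mean scaling (log2 fold change 1.19, limma adjusted p = 0.0488). Rgs5, Tagln and Acta2 had log2 fold changes of at least 0.37 in every alternative run, while Myh11 was at 0.011 (limma adjusted p = 0.985) with centring on endothelial markers. At 3 libraries per group, 61.2% of genes with a 2-fold change were recovered on simulated data. Cnn1 had 8 to 42 reads per library, and the part of depth in its result was not tested.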
